A study of Mus musculus with 16 samples.

Results

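The comparison described here is of old hematopoietic stem cells (HSCs) after against before transplantation, in mice. It rests on 4 libraries made before transplantation and 4 made after it, out of 16 in the study. The members were taken from the labels: the old library collected after transplantation was paired with the old library of the same number collected before it. Each pair started from 1 male C57BL/6 ("B6") mouse of 24 months. Of its sorted HSCs, 10000 were assayed directly by ATAC-seq, and 1000 were injected into 5 lethally irradiated young recipients of the BJ strain together with 300000 BJ marrow helper cells depleted of Sca-1 positive cells. After 3 months the marrow of the 5 recipients was pooled, and 10000 HSCs were sorted from it for the second library. The other 8 libraries were made in the same way from pools of 3 to 4 young males of 8 to 12 weeks, before and after transplantation, and are used only where the change in old cells is set beside that in young cells. No altered gene is named for any group. All cells after transplantation had passed through an irradiated young host. The labels do not say that a donor marker was used in the second sort, so cells of the host or the helper marrow cannot be told apart from donor HSCs in these data. Transposition days also differed: days 1 and 2 before and days 4, 5 and 6 after transplantation, so day and stage cannot be told apart.

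HSCs are rare marrow cells that renew themselves and give rise to all blood lineages. With age they grow in number, favour platelets and myeloid cells over lymphocytes, and rebuild blood less well when transplanted. Transplantation forces a small number of them to divide and to settle in a new niche. ATAC-seq uses a transposase to cut accessible DNA, so that promoters and enhancers appear as peaks. The deposited lists give each peak an area score, which sums the caller's significance over the peak, and are not normalised between libraries. A pair of readouts was therefore used. The first was the percentile of a region's area score within its own library, where 0 is the lowest and 100 the highest region, over the 5320 merged regions called in all 8 old libraries. The second was whether a region was called, after the longer list of each pair had been shortened to the strongest peaks of the shorter one.

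The old libraries held between 5687 and 31003 peaks. Before transplantation the 4 lists held 27302, 30520, 17299 and 5687 peaks, and afterwards 23287, 28498, 31003 and 14008. Lists thus became shorter in pairs 1 and 2 and longer in pairs 3 and 4, with a mean difference of 3997 ± 8433 (SD, n = 4 pairs, exact two-sided sign-flip permutation test, p = 0.5; 4 pairs cannot give less than 2 of 16 sign patterns). As a check of the label, 7, 8, 8 and 5 of 11 HSC marker genes had a called promoter after transplantation and 8, 8, 7 and 4 before it. Of 17 T, B and NK cell markers at most 1 had one in any old library, of 12 granulocyte and monocyte markers at most 1, of 8 erythroid markers 2, and of 10 endothelial and stromal markers at most 2.

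**Figure D1:**
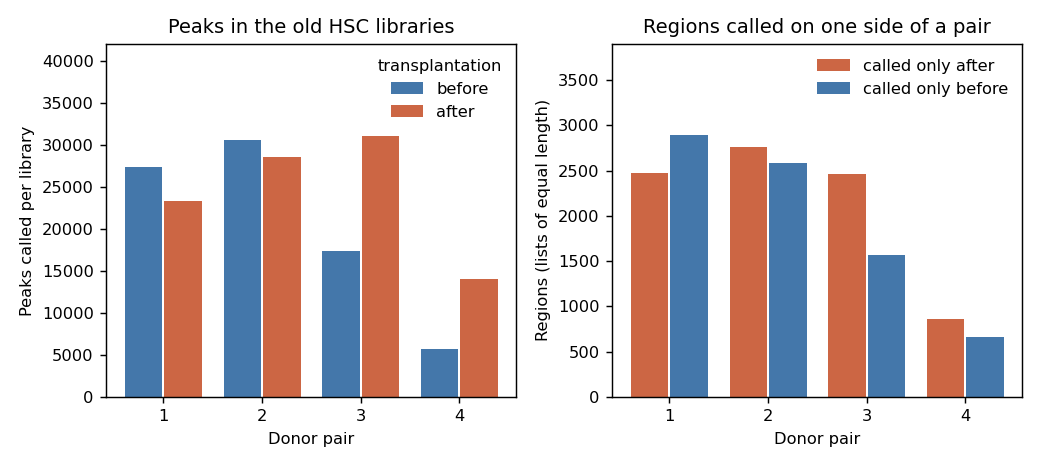
Left, peaks per old library by donor pair, before (blue) and after (orange) transplantation. Right, regions called on 1 side of a pair alone once both lists had the same length. The lists lengthened in pairs 3 and 4 and shortened in pairs 1 and 2, and between 661 and 2895 regions per pair were then called on 1 side alone.

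The promoters at which the comparison is easiest to see are printed first. Each is the 150 bases before the RefSeq transcription start (GRCm38), 5′ to 3′ on the strand of the gene, and all 150 bases lie inside the called region. Capitals mark matches on either strand to any of 9 short motifs. AP-1 factors, which respond to stress and growth signals, were searched as TGANTCA, and the cyclic AMP response element as TGACGTCA. The TEAD factors of the Hippo pathway were searched as GGAATG, and the STAT factors downstream of cytokine receptors as TTCNNNGAA. The ETS family, which binds many promoters of blood cells, was searched as CCGGAAG, and the GATA factors of blood lineages as AGATAA. The remaining 3 were the CCAAT box, the cell cycle element known as CHR (TTTGAA) and the GC box bound by KLF and SP factors (GGGCGGG). The first 4 promoters ranked lower or lost their call after transplantation. Cavin2 lies at chr1:51288976-51289125 (plus strand), Amotl2 at chr9:102717654-102717803 (plus strand), Osmr at chr15:6874314-6874463 (minus strand) and Ampd3 at chr7:110768472-110768621 (plus strand).
Cavin2: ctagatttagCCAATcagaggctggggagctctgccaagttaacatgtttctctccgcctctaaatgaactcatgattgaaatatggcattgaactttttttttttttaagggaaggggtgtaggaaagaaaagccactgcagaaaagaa
Amotl2: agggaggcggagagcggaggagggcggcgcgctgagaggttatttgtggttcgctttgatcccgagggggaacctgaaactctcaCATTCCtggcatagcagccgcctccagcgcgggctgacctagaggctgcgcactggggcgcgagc
Osmr: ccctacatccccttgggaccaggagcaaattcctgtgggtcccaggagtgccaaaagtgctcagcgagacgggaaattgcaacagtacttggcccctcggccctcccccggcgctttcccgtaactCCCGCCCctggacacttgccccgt
Ampd3: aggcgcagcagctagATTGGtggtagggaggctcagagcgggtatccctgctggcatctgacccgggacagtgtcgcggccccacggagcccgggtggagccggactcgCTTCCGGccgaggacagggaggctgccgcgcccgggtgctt

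The next 4 promoters ranked higher after transplantation. Aspm lies at chr1:139454623-139454772 (plus strand), H2bc15 at chr13:21753926-21754075 (plus strand), Arhgap30 at chr1:171388810-171388959 (plus strand) and Gna15 at chr10:81524226-81524375 (minus strand).
Aspm: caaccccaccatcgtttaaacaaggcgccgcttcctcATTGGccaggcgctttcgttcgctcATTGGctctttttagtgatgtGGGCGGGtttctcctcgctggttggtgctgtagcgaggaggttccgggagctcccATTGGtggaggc
H2bc15: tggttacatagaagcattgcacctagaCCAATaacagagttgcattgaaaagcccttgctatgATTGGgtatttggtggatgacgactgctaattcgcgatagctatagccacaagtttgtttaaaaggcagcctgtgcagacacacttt
Arhgap30: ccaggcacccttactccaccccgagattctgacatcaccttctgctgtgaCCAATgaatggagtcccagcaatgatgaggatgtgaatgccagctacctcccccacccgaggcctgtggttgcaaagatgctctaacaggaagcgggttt
Gna15: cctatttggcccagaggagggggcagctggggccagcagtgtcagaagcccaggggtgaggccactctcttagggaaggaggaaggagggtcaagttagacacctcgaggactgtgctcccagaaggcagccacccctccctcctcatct

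The Amotl2 stretch holds a TEAD match, printed as the reverse complement, and 14.7% of the 32851 RefSeq promoter windows of 300 bases hold one, as do 13.4% of the windows at common regions. The Aspm stretch holds 3 CCAAT matches and a KLF/SP match, and H2bc15 holds 2 CCAAT matches. CCAAT occurs in 37.4% and GGGCGGG in 25.6% of all windows, and in 55.3% and 60.7% of those at common regions. Cavin2 and Arhgap30 each hold 1 CCAAT match, Ampd3 a CCAAT and an ETS match (8.86% of all windows and 23.2% of those at common regions), Osmr 1 KLF/SP match, and Gna15 none of the 9. A match describes letters and not a bound site.

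The largest downward shift among regions called in all old libraries was at Cavin2, which codes for a coat protein of caveolae. Its promoter region (chr1:51288154-51290276) ranked at percentiles 65.99, 74.3, 62.4 and 59.8 before and 10.8, 16.2, 16.3 and 13.9 after. Every library after transplantation was below every library before it, and the 4 values on each side were close together. The mean difference was -51.3 ± 5.68 percentile points (SE, n = 4 pairs, limma with donor as block, adjusted p = 0.242). A further region inside the gene (chr1:51299682-51300865) stood at 26.02, 27.9, 12.7 and 27.2 before and 1.04, 2.79, 2.62 and 9.52 after, again without overlap.

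Across all 5320 regions no single one passed an adjusted p of 0.05 (0% called; limma), and 464 had an unadjusted p under 0.05, of which 203 were higher and 261 lower. The regions named below are therefore those with the smallest p among regions that moved the same way in all 4 pairs, and none of them passed. In all, 525 regions (9.87%) were higher in all 4 pairs and 466 (8.76%) were lower in all 4. The libraries did not overlap at 174 regions higher after transplantation (3.27%) and at 116 lower (2.18%). With pre and post treated as independent groups, 3 regions passed, all of them lower: Cavin2, Xdh and Arhgef10.

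Arhgef10, a gene for a guanine nucleotide exchange factor, had an intragenic region (chr8:14992106-14993579) at percentiles 75.6, 65.97, 64.8 and 63.99 before and 15.7, 27.9, 17.7 and 15.6 after. All 4 libraries after transplantation were lower, with a difference of -48.4 ± 6.22 points (adjusted p = 0.242, limma). Xdh codes for xanthine dehydrogenase, an enzyme of purine breakdown. The region 7468 bp outside it (chr17:73875012-73876427) stood at 46.5, 46.6, 42.6 and 40.1 before and 1.49, 5.10, 8.75 and 8.92 after. Here too the groups did not overlap, and the difference was -37.9 ± 4.57 points (adjusted p = 0.242, limma).

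Amotl2, an angiomotin family gene of the Hippo pathway, had its promoter region (chr9:102716997-102719234) at 79.95, 71.01, 83.7 and 41.7 before and 38.1, 22.04, 42.3 and 0.479 after. It was lower in every pair, with a difference of -43.3 ± 5.63 points, although the lowest library before transplantation (pair 4) lay below the highest after it (adjusted p = 0.242, limma). Wwtr1 codes for TAZ, a coactivator that the Hippo pathway restrains. Its promoter region (chr3:57574866-57576963) was at 74.2, 72.5, 82.04 and 49.9 before and 33.2, 52.5, 45.8 and 6.31 after, also lower in each pair and overlapping between groups (adjusted p = 0.323, limma).

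Socs3, which codes for a feedback inhibitor of JAK-STAT signalling, had 2 regions that ranked lower. The one 1207 bp outside the gene (chr11:117963140-117964872) was at 58.4, 67.7, 60.6 and 60.6 before and 18.6, 25.3, 29.1 and 5.52 after. The promoter region (chr11:117968027-117970343) was at 90.3, 89.01, 94.4 and 83 before and 78.1, 78.96, 80.8 and 48.4 after. Neither overlapped between groups, and the differences were -42.2 ± 6.27 and -17.6 ± 4.56 points (adjusted p = 0.288 and 0.458, limma). The region 5752 bp from Baiap2 (chr11:119932999-119934164), a gene for an adaptor between membranes and actin, was at 33.4, 23.9, 20.3 and 40.8 before transplantation. Afterwards it was among the lowest regions of every list, at 0.0282, 0.141, 0.592 and 0.103.

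Among the 6 named regions that ranked higher were 2 near genes of cell division. Depdc1b, whose product acts in mitosis, had an intragenic region (chr13:108315273-108317140) at 11.2, 7.13, 6.36 and 16.5 before and 47.1, 33.7, 42.2 and 37.8 after. Aspm codes for a protein of the spindle poles, and its promoter region (chr1:139454004-139455551) was at 4.09, 10.6, 1.95 and 10.6 before and 31.1, 27.6, 43.6 and 42.1 after. Both were higher in all 4 pairs without overlap, by 29.9 ± 4.72 and 29.3 ± 5.04 points (adjusted p = 0.294 and 0.294, limma). Divided by peak width, the same scores gave differences of -0.681 and -1.31 points, so the direction at these 2 regions depends on the widths of their peaks.

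The promoter of H2bc15 (chr13:21752991-21755016), a replication-dependent histone H2B gene in a cluster of near-identical copies, was at 57.6, 59.7, 54.4 and 72.5 before and 84.2, 78.4, 87.02 and 87.5 after. How reads that fit several copies were placed is not given in the sources used here, so this region is uncertain. An intragenic region of Lama3 (chr18:12346688-12348118), which codes for a laminin chain, was at 7.06, 9.14, 0.799 and 1.42 before and 36.3, 28.8, 23.6 and 34.7 after. The region 36744 bp from Utp18 (chr11:93821390-93822499), a gene of ribosomal RNA processing, was at 2.70, 3.75, 0.122 and 8.32 before and 15.8, 17.1, 24.8 and 32 after. The region 38973 bp from Naif1 (chr2:32494449-32496111), named for a nuclear factor linked to apoptosis, was at 25.05, 28.3, 6.85 and 14.2 before and 49.3, 52, 58.6 and 49.9 after. None of these 4 overlapped between groups, and their differences ran from 18.7 to 33.8 points with adjusted p from 0.288 to 0.358 (limma).

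**Figure D2:**
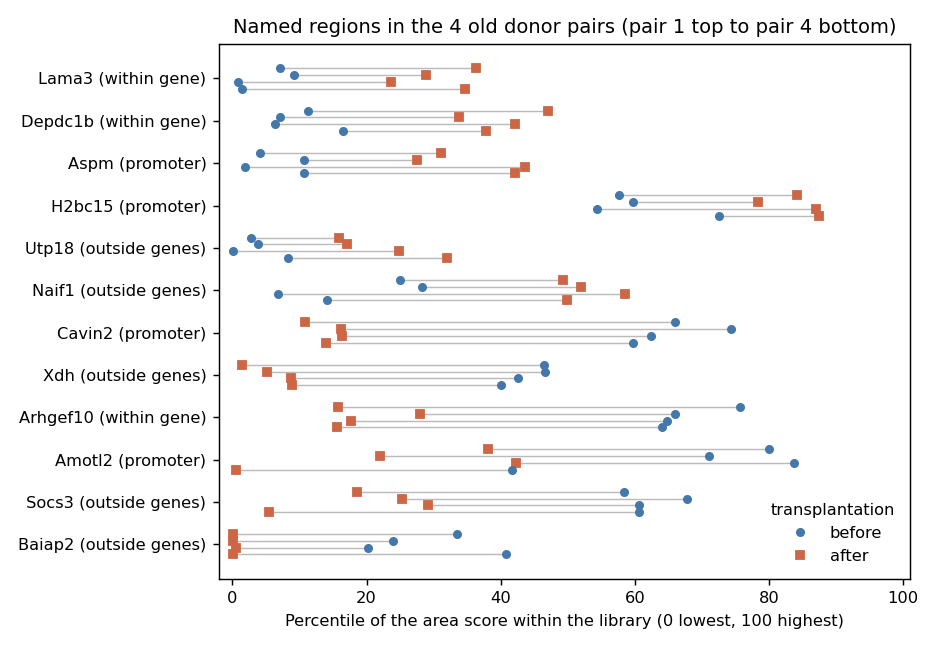
Percentile of the area score within each old library for the 12 named regions, with 1 line per donor pair joining the value before (blue circle) and after (orange square) transplantation. The upper 6 regions moved up and the lower 6 down in all 4 pairs, and the groups overlap at Amotl2 alone.

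The changes were then counted by gene list. The lists were drawn up with earlier results of these data known, so their direction is not independent evidence. The Cavin2 and Wwtr1 regions named above are members of the first list described. The highest share of regions lower in all 4 pairs was in the list of genes reported elsewhere as more active in old HSCs: of 20 regions near 18 of its genes, 10 (50%) were lower in all 4 pairs and 0 higher, against 8.76% and 9.87% of all regions. In 5 of the 20 the libraries after transplantation all lay below those before it, against 2.18%. The median change of the list was -7.03 points, beside 0.515 over all regions. By pair the list's median was -17.4, -13.1, -0.84 and -2.53 points, so most of its size came from pairs 1 and 2. Other lists had medians of like size on few regions. Granulocyte and monocyte genes stood at -10.6 points over 5 regions, and endothelial and stromal genes at -7.88 over 5. TGF-beta and BMP genes stood at -7.62 over 16, and NF-kB genes at -4.79 over 8. T, B and NK cell genes stood at -4.08 over 3 regions near 1 gene. In the other direction, lymphoid priming genes stood at 8.63 over 7 regions. Genes reported as less active in old HSCs stood at 6.41 over 7. The part of other cells in the change of the ageing list was not tested.

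Besides both Cavin2 regions and Wwtr1, the list held Rorb, a retinoid-related orphan receptor gene, at 68.5, 78.9, 63.8 and 21.6 before and 2.94, 17.2, 42.8 and 19.3 after. Nupr1, a stress-response gene, had a region at 89.1, 91.6, 82.7 and 88.6 before and 47.8, 63.1, 74.4 and 70.7 after and did not overlap. Clu, the clusterin gene, stood at 4.99, 11.5, 11.4 and 3.19 before and 2.77, 0.799, 1.36 and 1.29 after, low in all libraries and lower after transplantation in each pair. Gda, the guanine deaminase gene, was at 30.8, 25.5, 15.6 and 16.5 before and 8.52, 10.8, 14.1 and 10.2 after. Smaller differences in all 4 pairs were seen at Selp, the P-selectin gene (-5.03 points), Alcam, an adhesion molecule gene (-5.67), and a region within Stom, the stomatin gene (-7.84).

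Other regions of the same list moved both ways. At Vwf, the von Willebrand factor gene, the common region was at 68.2, 50.2, 45.7 and 17.5 before and 31.5, 49.6, 58.8 and 49.4 after, higher in pairs 3 and 4 and lower in pairs 1 and 2. The region near Procr, the gene of the HSC marker EPCR, was at 86.4, 84.4, 79.7 and 8.84 before and 64.9, 72.9, 82.4 and 75.4 after, lower in pairs 1 and 2 and higher in pairs 3 and 4. None of the 20 regions passed, and the adjusted p was 0.242 or more (limma). In the list of genes reported as less active in old HSCs, 2 of 7 regions were higher in all 4 pairs and 0 lower. They were the promoters of Rassf4, at 73.2, 62.6, 68.5 and 58.1 before and 75.1, 75.3, 75.9 and 80.6 after, and of the integrin gene Itga4, at 80.01, 82.9, 73.8 and 58.96 before and 80.99, 85.4, 87.5 and 89.6 after.

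Cytokine signalling genes had 5 of 19 regions lower in all 4 pairs and 3 higher (26.3% and 15.8%, against 8.76% and 9.87% of all regions). With the 2 Socs3 regions, the lower ones were the promoters of Jak3, a kinase that acts with cytokine receptors, at 29.2, 60.7, 43 and 52.2 before and 17.2, 16.4, 9.92 and 21.6 after, of Stat3 (-4.31 points) and of Stat5a (-4.77 points). The higher ones included the promoter of Sh2b3, which codes for the cytokine signalling inhibitor LNK, at 62.3, 76.1, 28.4 and 2.70 before and 74.8, 85.1, 77.9 and 35.03 after. Of the AP-1 and immediate early genes, 5 of 33 regions were lower in all 4 pairs and 2 higher (15.2% and 6.06%, against the same 8.76% and 9.87%). Maff, a small Maf transcription factor gene, was at 89.1, 90.4, 95.7 and 93.1 before and 81.7, 76.3, 83.3 and 78.2 after with no overlap, and Btg2, an antiproliferative gene, at 47.8, 61.4, 99.3 and 99.1 before and 40.3, 37.6, 43.7 and 52.2 after. The Jun promoter stayed at the top of every list, between percentiles 99.7 and 99.9.

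In the cell cycle and replication list, 4 of 20 regions were higher in all 4 pairs and 1 lower (20% and 5%, against 9.87% and 8.76% of all regions). The higher ones were near Cdkn1b, which codes for the cell cycle inhibitor p27 (7.98 points), near the proliferation marker gene Mki67 (6.02), and at the promoters of the replication licensing gene Cdc6 (4.85) and of the kinase gene Cdk4 (4.74). The lower one was the promoter of Cdkn1a, which codes for the inhibitor p21 (-10.4 points). Among erythroid genes, 3 of 11 regions were lower and 1 higher in all 4 pairs (27.3% and 9.09%). The carbonic anhydrase gene Car2 was at 61.9, 57.7, 62.5 and 49.7 before and 48.5, 48.2, 42.4 and 36.3 after.

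Among homing and niche adhesion genes 2 of 10 (20%, against 8.76% of all regions) were lower in all 4 pairs: a region in the integrin gene Itga6, at 14.8, 24.8, 23.9 and 30.6 before and 5.31, 5.42, 11.4 and 8.45 after, and one in the sphingosine phosphate receptor gene S1pr1, at 57.2, 61.01, 65.3 and 54.4 before and 43.6, 50.7, 48.8 and 50.5 after. The HSC identity and self-renewal list had 1 higher and 1 lower of 29, below both shares of all regions. Its higher region, near the transcription factor gene Gfi1b, was at 92.7, 92.1, 86.3 and 30.99 before and 94.3, 95.9, 95.7 and 96.1 after, and its lower one, the promoter of the catenin-like gene Ctnnal1, at 59.7, 56.7, 63.02 and 76.3 before and 56.02, 47.7, 33.4 and 48.5 after. Megakaryocyte and platelet genes had 1 lower (10%) and 0 higher of 10, and interferon genes 2 and 2 of 19 (10.5% each). Hox genes and cofactors had 0 and 0 of 9. The shares of all regions were 8.76% lower and 9.87% higher, so the interferon counts and the lower platelet count were near them.

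In lists of core cell functions the counts were again small. The shares of all regions were 8.76% lower and 9.87% higher in all 4 pairs. RNA splicing genes had 4 of 22 regions lower in all 4 pairs and 1 higher, or 18.2% and 4.55%. The promoters of the splicing factor genes Srsf3 and Sf3b1 differed by -19.9 ± 6.05 and -16.01 ± 7.13 points (SE, n = 4 pairs). Ribosomal protein genes had 3 of 14 lower and 1 higher (21.4% and 7.14%). The promoter of Rps23 was 13.5 ± 4.89 points higher and that of Rps27 differed by -31.9 ± 11.1. Of hypoxia and glycolysis genes, 3 of 21 were lower and 2 higher in all 4 pairs (14.3% and 9.52%). A region in the hexokinase gene Hk1 differed by 16.3 ± 5.26 points. TGF-beta and BMP genes had 3 of 16 lower (18.75%) and 0 higher, and NF-kB genes 2 of 8 lower (25%) and 0 higher. No region of any of the 23 lists passed (limma).

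**Figure D3:**
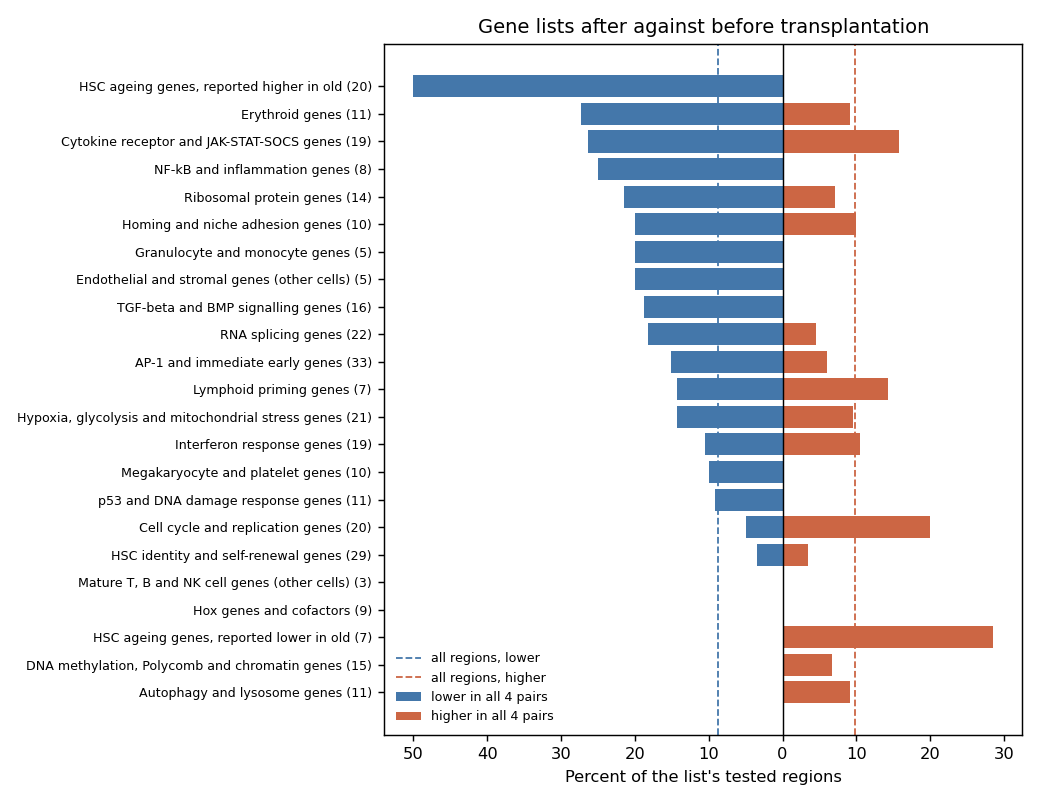
Percent of each gene list's tested regions that were lower (blue, left) or higher (orange, right) in all 4 pairs after transplantation, with the number of regions in brackets and the shares of all 5320 regions as dashed lines. Genes reported as higher in old HSCs reach 50% to the left with none to the right. The lists were drawn up with earlier results of these data known.

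The presence of a call was compared next, since a region can drop out of a list. With equal list lengths, 19269, 24185, 14311 and 4667 regions were called on both sides of pairs 1 to 4, which is 86.9%, 90.3%, 90.1% and 87.6% of the regions before transplantation. Between 860 and 2757 regions per pair were gained and between 661 and 2895 lost, and their median percentiles were between 10.8 and 18.3. Of 29804 regions, 93 (0.312%) were lost in 3 or more pairs and gained in none, and 48 (0.161%) were gained in 3 or more and lost in none. Since the lists of pair 4 were the shortest, nearly all of these rest on pairs 1 to 3: with pair 4 left out, 92 were lost and 48 gained in all 3 remaining pairs. Leaving out any other pair left at most 2 lost in 3 pairs and 0 gained. The balance of lost and gained depends on the list lengths: in the full lists 51 regions were lost and 393 gained in 3 or more pairs, and with all 8 lists shortened to the shortest 110 were lost and 142 gained.

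A single region was lost in 4 of 4 pairs, inside the claudin family gene Cldn34d (chrX:76598672-76599180). Its percentiles before transplantation were 35.5, 24.4, 33.5 and 1.23 in the shortened lists, and no old library called it afterwards. In a test that weights each library by its tendency to call peaks, it was the 1 region of 10384 (0.00963%) that passed (exact conditional test, Benjamini-Hochberg adjusted p = 1.58e-05). That call rests on the short list of pair 4: without pair 4 no region passed, and without weights (Fisher's exact test) none did. The 4 young libraries before transplantation also called it, and 1 of the 4 after did. The next regions in this test, near Cblb, Lrrk1 and Rfx4, were called in 0 of 4 libraries before and 4 of 4 after transplantation, with an adjusted p of 0.110 each.

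Among the 93 lost regions, 6 lay near genes reported as higher in old HSCs, out of 113 regions near such genes (5.31%, against 0.312%), and 0 of those were gained. The region in Clu (chr14:65970073-65971325) was at percentiles 67.7, 60.6 and 30.2 of the shortened lists in pairs 1 to 3 before transplantation, well above the bottom. No library after transplantation called it. The promoter of Osmr (chr15:6873261-6874872), the oncostatin M receptor gene, was at 47.7, 68.4 and 10.4 and was likewise not called afterwards. Neither the Clu nor the Osmr region was called in any of the 8 young libraries.

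The promoter of Ampd3 (chr7:110767802-110769587), an AMP deaminase gene, was at 58.7, 62.3 and 30.7 before transplantation and not called after it. It differs from Clu and Osmr in that 2 of 4 young libraries before and 3 of 4 after transplantation called it. The other 3 were the promoter of Cd38, which codes for an NAD-consuming surface enzyme, at 19.9, 43.6 and 3.78, a region in the oxysterol receptor gene Gpr183, at 19.02, 46.6 and 0.872, and one in Vwf, at 13.7, 27.9 and 6.42. In pair 3 the values of Gpr183, Cd38 and Vwf were close to the bottom of the list. The full list of pair 3 after transplantation did call the Cd38 and Vwf regions, which were lost there by the shortening alone. A second region within Ampd3 (chr7:110796448-110796993) went the other way. In the full lists 0 of 4 old libraries before and 3 of 4 after transplantation called it. At equal list length it was gained in 2 pairs, too few to count among the gained regions.

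With both lists of a pair at equal length, regions near genes reported as higher in old HSCs numbered 89, 104, 63 and 20 before and 68, 89, 51 and 14 after transplantation, fewer after in each pair. Those near genes reported as lower numbered 26, 34, 23 and 7 before and 31, 36, 19 and 10 after, more in pairs 1, 2 and 4 and fewer in pair 3. Those near HSC identity genes numbered 142, 192, 102 and 29 before and 126, 169, 99 and 31 after. All regions in the shortened lists numbered 22164, 26771, 15878 and 5328 before and 21748, 26942, 16777 and 5527 after. That total fell in pair 1 and rose in the other pairs. The ageing lists were drawn up with earlier results of these data known, so their direction is not independent evidence.

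Other listed genes with a lost region were Kit, the stem cell factor receptor gene, Cdc42, a small GTPase gene that acts in cell polarity, Ezh1, a Polycomb methyltransferase gene, Epas1, which codes for HIF-2 alpha, and Atg7, a core autophagy gene. Kit was 1 of 227 regions of the HSC identity list (0.441%) and, with Osmr, 1 of 2 lost of 97 cytokine signalling regions. Cdc42 was 1 of 98 regions of its list (1.02%), Ezh1 1 of 79 (1.27%), Epas1 1 of 107 (0.935%) and Atg7 1 of 61 (1.64%). The share lost of all regions was 0.312%, and none of these lists held a gained region. The Ezh1 region (chr11:101220970-101222006) was at 31.1, 52.6 and 21.3 in pairs 1 to 3 and the Cdc42 region (chr4:137326243-137327032) at 40.4, 54.3 and 9.93. The full list of pair 3 after transplantation called the Kit, Cdc42, Ezh1 and Atg7 regions, which were lost in that pair by the shortening alone, while no old library after transplantation called the Epas1 region. Ezh1, Cdc42 and Epas1 regions were called in no young library, while the Kit and Atg7 regions were called in 4 of 4 young libraries after transplantation. Gained regions of listed genes lay in Runx2, an osteoblast and hematopoietic transcription factor gene, and Cdk6, a G1 kinase gene. Runx2 was 1 of 60 endothelial and stromal regions (1.67%) and Cdk6 1 of 71 cell cycle regions (1.41%), against 0.161% of all. Neither list held a lost region. After transplantation the Runx2 region was at 5.86, 42.6 and 7.19 in the shortened lists of pairs 1 to 3. The Cdk6 region was at 2.90, 35.9 and 0.218, at the bottom of the shortened lists in pairs 1 and 3. The full list of pair 1 before transplantation also called the Cdk6 region. Both were called in 4 of 4 young libraries after transplantation.

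Outside the lists, and chosen after their values were seen, the strongest lost region lay inside Peg3, an imprinted zinc finger gene. This intragenic region (chr7:6728180-6729042) was at 58.9, 63.8 and 62.3 in pairs 1 to 3, and the weaker promoter region of the gene (chr7:6729193-6729904) at 39.2, 52.9 and 35.8. Each was called in 3 of 4 young libraries before and 0 of 4 after transplantation. Lost promoters of the neurotrophin gene Ntf3, the muscarinic receptor gene Chrm3 and the atypical protein kinase C gene Prkcz were called in no young library. The Chrm3 promoter was lost in pair 3 by the shortening alone, since the full list after transplantation called it. The strongest gained regions lay near the zinc finger gene Zfp316, with percentiles 44.8, 61.3 and 33.7 after transplantation in pairs 1 to 3, and near Hexim2, an inhibitor gene of the elongation factor P-TEFb, with 39.9, 55.8 and 20.9.

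The young libraries, which entered the choice of gained and lost regions only through the merging of peaks, differed between these sets. Of the 93 regions lost in old cells, 41 (44.1%) were called in no young library at either stage, against 1 of 48 gained regions (2.08%) and 2.65% of all 29804. Regions called in only 1 of the 16 libraries had been left out, which lowers the 2.65% but not the 44.1%. Of the gained regions, 44 (91.7%) were called in all 4 young libraries after transplantation, against 86.6% of all regions. In all 4 before it 0 were called, against 30.2%. These young lists were not shortened, and held 28298, 23044, 21346 and 9614 peaks before and 32530, 30784, 31409 and 32007 after. Young library 1 before called 34 of the 48 and library 4 called 0. At equal length within young pairs, 39 of the 48 (81.25%) were gained in more pairs than lost and 0 the reverse. The shares of all regions were 23.8% and 14.6%. Of the lost regions, 11 were called in all 4 young libraries after transplantation. At equal length within young pairs, 38 of the 93 (40.9%) were lost in more pairs than gained and 3 the reverse. Promoters made up 1 of the 48 gained and 28 of the 93 lost regions (2.08% and 30.1%), against 32.8% of all. Lost and gained regions are by their choice called in few old libraries and tend to be weak, and the part of strength in these shares was not tested.

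**Figure D4:**
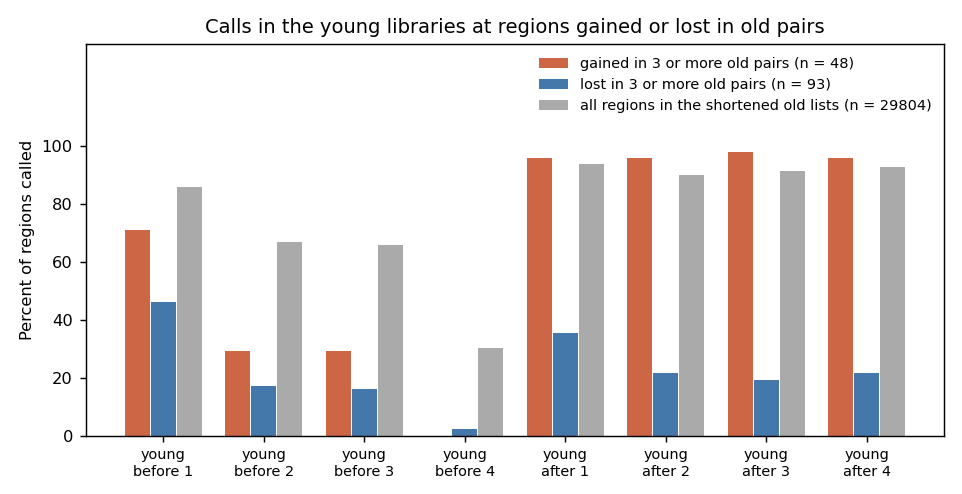
Percent of regions called in each young library, for regions gained (orange) or lost (blue) in 3 or more old pairs and for all regions (grey). The 4 young libraries after transplantation called 46 or 47 of the 48 gained regions and between 18 and 33 of the 93 lost ones. The young lists are the full ones, of unequal length.

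The change at each region was then set beside that in young HSCs, over 5262 regions called in all 16 libraries. No region passed the test of the difference between the 2 changes (0% called; limma, age by stage term), and 337 had an unadjusted p under 0.05. The smallest adjusted p was 0.235, at the Amotl2 promoter. There the change was -43.5 points in old and 0.869 ± 9.06 (SD, n = 4 pairs) in young HSCs, a difference of -44.4 ± 6.42 (SE). At Arhgef10 it was -48.6 in old and -18.2 ± 7.38 in young, and near Socs3 -42.5 and -17.9 ± 22.4.

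At 2 of the regions that ranked higher, the young change was of similar size. At Depdc1b the change was 29.7 in old and 33.4 ± 12.3 in young HSCs, and at Lama3 25.9 and 22.6 ± 8.74. The differences between ages there were -3.73 ± 7.59 and 3.32 ± 5.63 points (SE). At Aspm the young change was 12.1 ± 14.03, and near Naif1 7.47 ± 5.32. The Cavin2 promoter, Xdh and Baiap2 regions were called in 4 of 4 young libraries after transplantation but in 3, 3 and 2 of 4 before it, and so had no young value.

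Ranks over all regions, with uncalled ones tied at the bottom, were compared over 26115 regions. None passed (0% called; limma, smallest adjusted p = 0.577), and 1247 had an unadjusted p under 0.05. Among the 6 lowest p in each direction, Cavin2, Arhgef10 and Cldn34d appeared again as lower. Near Atp5o, an ATP synthase subunit gene, ranks were 89.9, 85.9, 90.7 and 93.3 before and 78.7, 78.6, 83.9 and 84.7 after, and near the predicted gene Gm40363 they were 93.9, 93.4, 93.9 and 93.1 before and 86.4, 86.4, 84.3 and 88.1 after. The promoter of Atad2b, a bromodomain gene, was at 94.9, 90.2, 86.3 and 90.9 before and 83.7, 78.7, 75.2 and 85.05 after, but this direction turned with the score per base (6.50 points).

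The promoter of Arhgap30, which codes for a GTPase-activating protein, had ranks 75.1, 72.7, 74.8 and 42.1 before and 98.1, 98.2, 98.3 and 90.8 after, with a difference of 30.2 ± 4.99 points. The value of pair 4 before transplantation is that of the regions that library did not call, all tied, and the difference was 48.7 there against 23.02, 25.5 and 23.5 in the other pairs. Gna15, a G protein alpha subunit gene of blood cells, had its promoter region (chr10:81523431-81525662) at 88.5, 90.7, 88.2 and 86.7 before and 94.6, 95.2, 95.8 and 94.2 after. The promoters of Lig1, which codes for the ligase that joins replicated DNA, of Cyba, an NADPH oxidase subunit gene, and of Cnot8, an mRNA deadenylase gene, differed by 4.86, 5.69 and 4.83 points. A region in the phosphate transporter gene Slc34a1 differed by 6.60. In all 6 the libraries after transplantation were above all those before it.

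Changes by location differed between pairs. Promoters differed on average by 2.40, 1.28, -1.23 and -0.719 points in pairs 1 to 4, and regions outside genes but within 100 kb by -7.34, -4.65, 4.11 and 2.75. Both directions turned between pairs 1 and 2, whose lists became shorter, and pairs 3 and 4, whose lists became longer. Transposition days differ between these sets too, and the part of either was not tested. The 63 regions beyond 100 kb from any protein-coding gene stood at -11.6, -6.19, -5.41 and -2.74 points. Their mean of -6.48 ± 3.71 (SD, n = 4 pairs) was below 0 in every pair, which 2 of 16 sign patterns give (exact sign-flip permutation test, two-sided), so that 4 pairs cannot pass 0.05. Of these regions, 14 (22.2%) were lower in all 4 pairs, against 8.76% of all.

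**Figure D5:**
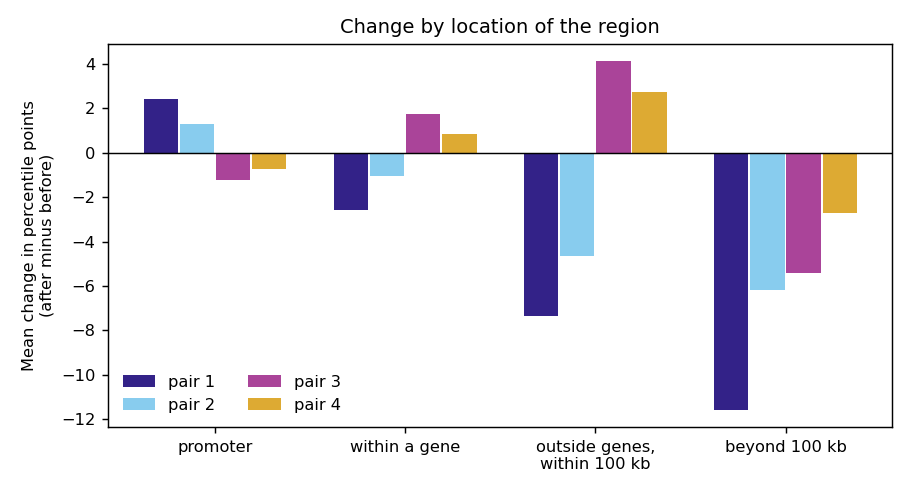
Mean change in percentile (after minus before transplantation) by location class, with 1 bar per donor pair. Promoters and regions outside genes turn sign between pairs 1 and 2 and pairs 3 and 4, while regions beyond 100 kb lie below 0 in all 4 pairs.

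Changes across the 5320 regions correlated at r = 0.611 between pairs 1 and 2 and at 0.360 between pairs 3 and 4, but between -0.117 and 0.011 across these sets. These are correlations across regions, which are not independent. Pairs 1 and 2 also share transposition days (1 and 4), and pairs 3 and 4 share day 2. In pairs 1 and 2 alone, 1092 of 20254 common regions passed (389 higher, 703 lower, limma), and the part of day or list length in this was not tested. Same-donor libraries correlated at 0.862 on average and libraries of different old donors across stages at 0.810 (exact permutation over 24 pairings, two-sided, p = 0.208), and the difference turned to -0.0115 without pair 4.

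The GC content of the promoters followed the same split. Over 3383 common promoter regions with a RefSeq window, the GC content correlated with the change at 0.206, 0.107, -0.308 and -0.184 in pairs 1 to 4. Among promoters lower in all 4 pairs (233), 16.7% held the TEAD motif GGAATG, against 10% of those higher in all 4 (350) and 13.4% of all tested. By pair, the change of promoters with the motif differed by -2.01, -1.91, 0.193 and 1.45 points from that of promoters without it, so the sign turned between pairs. The AP-1 motif TGANTCA was held by 7.30%, 3.43% and 4.82%, and promoters with it differed by -2.49, -1.62, -0.258 and -0.264 points. The RUNX motif TGTGGT went the other way, with 11.6%, 19.4% and 13.9%, as did the ETS motif CCGGAAG with 21.9%, 27.1% and 23.2%. By pair the differences were -0.187, 0.0478, 2.40 and 2.36 points for RUNX and 0.525, -0.914, 1.17 and 1.89 for ETS. CCAAT was held by 58.8%, 52.9% and 55.3%, and promoters with it differed from those without it by -0.326, 1.24, 1.10 and -3.47 points in pairs 1 to 4. These shares, 5 of the 12 motifs counted and chosen after their values were seen, are a description without a test. The median GC content was 62.7% in the lower and 62% in the higher promoters.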

How the data were processed

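ATAC-seq peaks were compared in 8 old HSC libraries (4 donor pairs), with 8 young libraries beside them. Per the submitters' processing notes, the tools named include cutadapt for reads and the peak caller Genrich, with build mm10. For the aligner, versions and settings, the sources used here give nothing. Each library has its own deposited list. Column 7 of the deposited lists is a score (the area of a peak), as is column 5, and columns 8 and 9 are -log10 p and -log10 q of the summit in the authors' lists. No value is normalised between libraries, no read totals were used, and a region without a peak is not called rather than closed. Of 177791 old peaks, 187 on unplaced scaffolds were left out.

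Peaks overlapping by at least 1 bp in any of the 16 libraries were merged, and 33773 regions called in at least 2 were kept. Positions are 1-based (mm10, which is GRCm38), and regions were placed with RefSeq tables of GRCm38: at a promoter (within 1 kb of a start), within a gene, outside genes, or more than 100 kb away from each of the 21883 protein-coding genes. Promoter windows on chromosome 18 were not used here, so regions there count as within or outside genes. Starts were also missing for some genes on other chromosomes. The nearest start used lay 2923082 bp from the Clu region, 1153541 bp from the Arhgef10 region and 100869 bp from the Depdc1b region. All 3 lie within the span of their gene. Whether such regions lie at a promoter cannot be told, and the promoter counts leave them out. Percentiles and length-matched ranks were tested with limma 3.58.1 (R 4.3.3) with a trended variance and Benjamini-Hochberg adjustment at 0.05. Presence was tested by an exact conditional test with library weights from a Rasch model over regions called in 3 to 5 of 8 old libraries. The limma fit of percentiles and the weighted presence test were checked on simulated data with independent noise in each library. The other tests were not. Per the series design text, libraries of the same number come from the same donor mouse, so the donor was a block in the main fit. Deviations from the group means correlated at 0.0231, 0.457, -0.260 and 0.592 in pairs 1 to 4. The regions named are those with the 6 smallest p in each direction among regions that moved the same way in all 4 pairs, and, from 23 gene lists (584 names, 2 of them older names of another member), the text names some of the regions with the widest changes and of those that moved the same way in all 4 pairs. The members and lists were chosen with earlier results of these data known. Alternatives were leaving out a pair, no block, other columns, stricter peaks, other merging and list lengths, and other filters and scales.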

Additional observations from a re-analysis of the deposited data

Results flagged for a closer look

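The Arhgef10 region in the old libraries before transplantation was singled out because the library of pair 1, at a percentile of 75.6, lay apart from the other 3, which stood between 64.0 and 66.0. In all, 32 groups of 4 libraries were looked at for such a gap, and chance alone gives about 1 in 20. All 4 libraries after transplantation were lower, between 15.6 and 27.9.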

How the results depend on the processing

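Without the replicate block, 3 of 5320 regions passed (Cavin2 and Xdh, adjusted p = 0.0163, and Arhgef10, 0.0325, limma), and no other call of the percentile, rank or interaction fits changed. Adjusted for location and width, an alternative chosen after seeing the data, 2 passed (Cavin2 and Arhgef10, adjusted p = 0.0479, limma). Pairs 1 and 2 alone gave 1092 regions, with 41.0% higher and 30.4% lower in both pairs, and pairs 3 and 4 alone gave 27.9% and 35.4%. With 1 pair left out, 13.1% to 19.7% were higher and 11.9% to 15.5% lower in the remaining 3, where fewer pairs had to move together.

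Per base, column 7 gave -0.681 at Depdc1b, -1.31 at Aspm and 6.50 at Atad2b, and column 9 gave 0.486 at Atad2b. The age by stage fit gave 1 call with column 9 and 0 to 1 with a replicate number left out (1 without replicate 4). The median of the genes reported as higher in old HSCs kept its sign in all 16 alternatives run, between -10.7 and -3.53 points.

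Regions gained in every pair numbered 0 to 48 and those lost in every pair 1 to 92 with 1 pair left out, both highest without pair 4. Those gained in 3 or more pairs numbered 0 to 48 and those lost 1 to 92, both highest without pair 4 too. In the full lists 3 were gained in every pair, 393 in 3 or more, and 51 were lost in 3 or more. In lists shortened to the shortest of the 8, 19 were gained and 12 lost in every pair, and 142 were gained in 3 or more. Where peaks had to cover at least 0.5 of the region, 96 were gained in 3 or more. With column 7 of at least 400, 0 were lost in every pair, 9 were gained and 27 lost in 3 or more. The weighted test called 0 to 2 regions with 1 pair left out (2 without pair 2, 0 without pair 4), 0 with column 7 of at least 400 and 0 by Fisher's exact test, beside 506 at an unadjusted p under 0.05 with weights. The difference in median peak width ran from -12.3 to 22.7 bp with 1 pair left out and was -2.75 bp with column 7 of at least 400, and the difference in similarity ran from -0.0115 to 0.0921. The cause of these differences was not tested. Of the alternatives to the main results, 106 gave the same answer, 37 moved a value and 3 turned it. Normal scores give no median in percentile points, and equal list lengths no difference in the number of peaks. Short lists, pair 4 before transplantation above all, limit what can be seen as called.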
